A study of Mus musculus with 8 samples.

Results

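The small subunit of the cytosolic ribosome is built from ribosomal RNA and a set of proteins, most of them encoded by genes named Rps. Members were all rows of the gene table typed as protein coding and named Rps followed by a number, without the Rps6k kinases, together with Rpsa and Fau. The rule used names alone, took 33 of the 28073 rows, and included Rps27l, a paralog of Rps27. Liver RNA was taken from 8 mice of the inbred strain C57BL/6, aged 21 to 22 weeks. The control group of 4 ate a low-fat diet and the other 4 a high-fat diet, and the series calls the mice of a group biological replicates. The labels name no genetic change or drug for either group. Diet length, sex, and the hour and feeding state at collection were not stated in the labels. The study asks about nuclear receptors of the liver and their target genes. Here each small subunit gene was compared between the diets in the same table.

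The small subunit binds messenger RNA and, with initiation factors, finds the start codon, and its decoding centre checks the pairing of codon and transfer RNA. It has a head and a body with a platform, and messenger RNA runs through a channel between them. Its proteins are made in the cytoplasm and join the ribosomal RNA in the nucleolus. In mammals the messenger RNAs of most ribosomal proteins start with a cytosine and a run of pyrimidines, called a 5′ terminal oligopyrimidine (TOP) motif. Through it their translation follows the nutrient-sensing kinase mTOR. Liver is a tissue of high protein synthesis in which ribosome content is known to change with feeding.

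RefSeq windows of the promoter and start site were matched by symbol for 25 of the 33 genes; Rps14, Rps20, Rps27a and Rps29 are among those without an entry. In 7 of the 25 (28%; Fau, Rps10, Rps15a, Rps18, Rps21, Rps27 and Rps6) the annotated start was a C followed by at least 4 bases that were C or T, against 3.01% of 27025 genes. The following lines show this run for 6 of them and its absence at the annotated starts of Rps27l and Rps16, the genes that stood apart in the results. Each gives 10 bases before the start and 20 from it on, 5′ to 3′ on the gene's strand, with the run in capitals.
Rps18: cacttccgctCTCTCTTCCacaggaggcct
Rps10: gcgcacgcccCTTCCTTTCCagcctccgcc
Fau: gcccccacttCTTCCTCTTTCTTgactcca
Rps15a: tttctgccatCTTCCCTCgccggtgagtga
Rps27: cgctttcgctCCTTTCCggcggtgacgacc
Rps6: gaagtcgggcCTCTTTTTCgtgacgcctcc
Rps27l: cctccccgccgcctctatcccggaagttgc
Rps16: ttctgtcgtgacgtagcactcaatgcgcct
On GRCm38.p6 these windows lie at chr17:33955646-33955675 (minus strand), chr17:27635225-27635254 (minus strand), chr19:6057937-6057966 (plus strand), chr7:118116128-118116157 (minus strand), chr3:90213629-90213658 (minus strand), chr4:86857348-86857377 (minus strand), chr9:66946076-66946105 (plus strand) and chr7:28350679-28350708 (plus strand). The median log2 fold change was -0.32 for the 7 genes with the run and -0.29 for the 18 without it at the annotated start, so the genes with and without it had similar medians. A looser search, for C followed by at least 6 pyrimidines within 30 bases on either side of the start on the gene's strand, matched 16 of 25 (64.0%) against 29.7% of all genes. Rps27l matched in this looser search and Rps16 did not. Over both strands of the whole window CCGGAAG, a sequence bound by ETS factors, stood in 11 of 25 (44.0%) against 9.93%. AAGATGG, a core of sites bound by YY1, stood in 6 of 25 (24.0%) against 7.28%, and TATAAA in 2 of 25 (8.0%) against 15.7%. A match describes letters in a window and is not evidence of binding.

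Libraries held 26643020 to 30013106 counts in total, and all 33 genes passed the filter on low counts, with 948 to 8525 counts each in a library. Levels are given as CPM, counts brought to a common library size that was scaled by TMM, edgeR's trimmed mean of M-values, and 1 count stood for 0.034 to 0.039 CPM. The scaling factors lay between 0.955 and 0.976 in control and between 1.02 and 1.07 in high-fat libraries. They did not overlap, so the scaling itself moved with diet, and some results are also given with library totals alone. Differences are log2 fold changes of high-fat over control diet, and a gene is called higher or lower where its adjusted p, by edgeR's quasi-likelihood test with Benjamini-Hochberg adjustment over 14088 genes, is under 0.05. Liver identity was clear from hepatocyte markers (5 of 5 genes tested), which summed to 63960 to 99070 CPM in control and 53120 to 56680 CPM in high-fat libraries.

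On the high-fat diet the small subunit genes were lower almost as a whole. Of the 33, 27 were called lower and 0 higher by edgeR, beside 5.86% of all tested genes called lower and 3.75% called higher. At an unadjusted p under 0.05 the numbers of members were 31 and 0. Counts at an unadjusted p, here and below, have no share of all tested genes beside them. The median log2 fold change of the 33 was -0.32, a level 20% lower, with a range from -0.73 (Rps16) to -0.03 (Rps27l), while the median of all tested genes was 0.0069. In 31 of the 33 every high-fat library lay below every control library, which held for 9.97% of all tested genes. The exceptions were Rps16 and Rps27l. In TMM-scaled CPM each of the 33 genes had its highest level in a control library and its lowest in a high-fat library. These overlaps and ranks depend on the scaling and were not counted again with library totals alone. On that scale the log2 fold change of Rps27l was 0.06. The highest level was in control replicate 2 for 14 genes and in control replicate 1 for 9, and the lowest was in high-fat replicate 3 for 19 and in high-fat replicate 2 for 10. Without scaling, the members' summed share of the counts was lowest in high-fat replicate 2 (0.364%). It was 0.375% in high-fat replicate 3, 0.378% in replicate 1 and 0.380% in replicate 4. High-fat replicate 3 also had the highest TMM factor (1.07) and the most counts of the stellate cell collagens, 1621 of Col1a1 against 233 to 388 and 9266 of Col3a1 against 2299 to 3278 in the other high-fat libraries. Without it 22 members were called lower, beside 3.04% of all tested genes, and their median log2 fold change was -0.30. In bulk liver RNA, fewer cells of a type and less of the RNA per cell cannot be told apart.

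These were small differences on a small spread. The SD over the 4 control libraries was 0.922% to 9.63% of the mean for the 32 genes other than Rps16, and over the high-fat libraries 0.905% to 7.50%. The medians over all 33 were 4.40% and 3.65%, against 12.6% and 10.1% for all tested genes. For Rps16 they were 35.6% and 15.6%. The number called rested on that precision and on the threshold: at an adjusted p of 0.01 it was 16, beside 1.57% of all genes. Without control replicates 1 and 4, the control libraries with adipocyte transcripts, 18 were called lower and 0 higher, beside 3.18% called lower, and the median log2 fold change of the members was -0.33. The 9 calls lost there were Rps2, Rps3, Rps15, Rps15a (adjusted p = 0.0521), Rps23, Rps25 (0.0696), Rps26, Rps27 (0.0708) and Rpsa. With library totals alone 22 were called lower, beside 3.79%, and the median was -0.23 while the median of all genes moved to 0.10; Rps2, Rps3, Rps15, Rps23 and Rps26 lost their calls. Leaving out 1 library at a time gave from 21 called lower, without high-fat replicate 2 and beside 3.54% of all genes, to 27, without control replicate 3 and beside 5.91%. DESeq2 called 31 lower, beside 8.47%, and limma-voom 28, beside 5.67%.

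**Figure D1:**
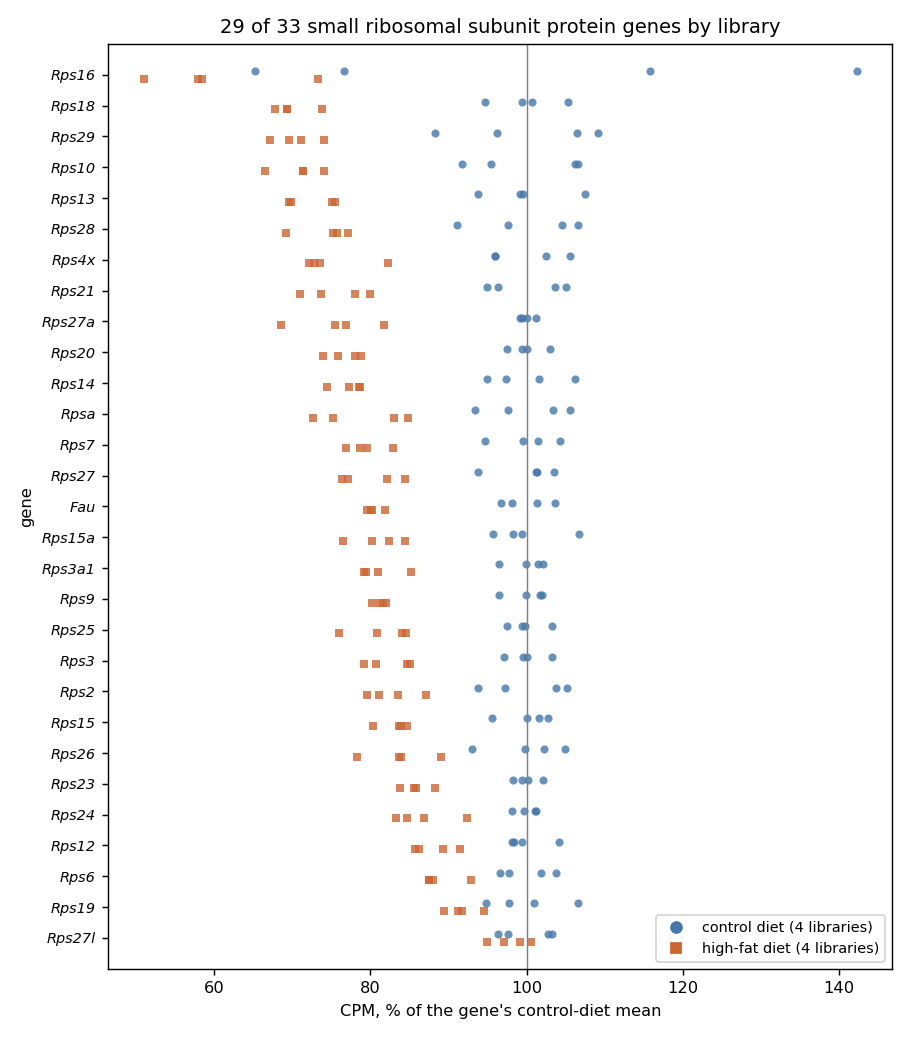
Level of 29 of the 33 small subunit genes in each library, as a percent of that gene's control mean (linear axis); points are libraries, coloured by diet. High-fat points lie to the left of control points except in Rps16 and Rps27l; Rps16 is spread over the control libraries and Rps27l overlaps.

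The head proteins form the upper lobe of the subunit, which moves during translocation. Of 14 head genes, 11 were called lower, beside 5.86% of all tested genes. In 13 every high-fat library lay below every control library, beside 9.97% of all tested genes. The median log2 fold change of the head genes was -0.39, from -0.73 to -0.12. Rps18 (uS13 in the unified naming; ENSMUSG00000008668.14, chr17:33951999-33956001, minus strand), which takes part in contacts with the large subunit, had the smallest p among members. It measured 136, 144, 129 and 138 CPM in control replicates 1 to 4 and 101, 94.7, 92.6 and 94.7 CPM in high-fat replicates 1 to 4. The high-fat libraries lay close together and well below the lowest control library. The mean went from 137 ± 6.01 to 95.7 ± 3.54 CPM (SD, n = 4), 29.9% lower, with a log2 fold change of -0.51 ± 0.058 (SE) and an adjusted p of 0.00212 by edgeR.

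Rps10 and Rps20 are neighbours near the messenger RNA entry, and both are known to be ubiquitinated when ribosomes collide. Rps10 (chr17:27630422-27636629, minus strand) measured 75.9, 75.6, 65.3 and 68.0 CPM in control replicates 1 to 4 and 47.3, 50.8, 50.8 and 52.8 CPM in high-fat replicates 1 to 4. Its control replicates 1 and 2 lay above replicates 3 and 4, and all 4 exceeded every high-fat library, with a log2 fold change of -0.50 ± 0.067 (SE) and an adjusted p of 0.00414 (edgeR). Rps20 (chr4:3831334-3835665, minus strand) measured 109.7, 116, 113 and 112 CPM in control replicates 1 to 4 and 87.7, 88.6, 85.4 and 83.2 CPM in high-fat replicates 1 to 4. Both groups were tight and far apart, and the change was smaller, -0.38 ± 0.051 (SE), adjusted p = 0.00395 (edgeR). Rps3, the other head protein of the entry channel and the head gene with the highest level, went from 254 ± 6.35 to 209 ± 7.37 CPM (SD, n = 4), with a log2 fold change of -0.28 ± 0.058 (SE) and an adjusted p of 0.0172 (edgeR). That call was lost without high-fat replicate 2 (adjusted p = 0.0598) or 3 (0.0530), with the log2 fold change at -0.27 and -0.26.

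Rps29 is a zinc-binding protein of the head, and Rps28 lies at the exit side of the channel. Rps29 (chr12:69157722-69159186, minus strand) measured 95.5, 93.1, 84.1 and 77.2 CPM in control replicates 1 to 4 and 64.8, 60.9, 58.7 and 62.2 CPM in high-fat replicates 1 to 4. Its control libraries were the more spread, with replicate 4 lowest, yet none reached the high-fat values; the log2 fold change was -0.50 ± 0.076 (SE) and the adjusted p 0.00545 (edgeR). Rps28 (chr17:33819027-33824562, minus strand) measured 65.2, 66.5, 60.9 and 56.9 CPM in control replicates 1 to 4 and 48.1, 46.9, 43.1 and 47.2 CPM in high-fat replicates 1 to 4. Control replicate 4 was again the lowest of its group, and high-fat replicate 3 the lowest of all, at -0.43 ± 0.066 (SE), adjusted p = 0.00603 (edgeR).

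Rps27a is made as a fusion with ubiquitin that is cleaved to free both. Rps27a (chr11:29545846-29548109, minus strand) measured 106, 106, 107 and 108 CPM in control replicates 1 to 4 and 87.5, 80.8, 73.4 and 82.3 CPM in high-fat replicates 1 to 4. The control libraries were nearly equal, the high-fat libraries were spread with replicate 3 lowest, and the groups did not overlap. Its log2 fold change was -0.40 ± 0.063 (SE), adjusted p = 0.00624 (edgeR). Rps25, needed in human cells by some viral internal ribosome entry sites, was called lower and went from 162 ± 3.85 to 131 ± 6.32 CPM (SD, n = 4). Rps15, close to the decoding site, measured 128, 127, 119 and 125 CPM in control replicates 1 to 4 and 105, 100.4, 105 and 106 CPM in high-fat replicates 1 to 4. Its groups were separate but the step was among the smaller called ones, -0.27 ± 0.053 (SE), adjusted p = 0.015 (edgeR), and the call was lost without high-fat replicate 2 (-0.25, adjusted p = 0.0525), with library totals alone (-0.17, 0.0729) and with exon length and GC trends removed (-0.20, 0.0862).

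Of 18 body and platform genes 16 were called lower, beside 5.86% of all tested genes. In all 18 every high-fat library lay below every control library, beside 9.97% of all tested genes. The median log2 fold change of the 18 was -0.31, from -0.46 to -0.17. Head genes thus had the lower median and the wider range, and the difference between the regions was not tested. Rps13 (ENSMUSG00000090862.3, chr7:116331505-116334195, minus strand), on the body side facing the large subunit, measured 79.8, 86.5, 75.5 and 80.1 CPM in control replicates 1 to 4 and 56.2, 60.5, 56.0 and 60.8 CPM in high-fat replicates 1 to 4. The gap between the groups was several times the spread within them. The mean went from 80.5 ± 4.53 to 58.4 ± 2.62 CPM (SD, n = 4), 27.5% lower, with a log2 fold change of -0.46 ± 0.061 (SE) and an adjusted p of 0.00362 (edgeR).

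Rps21 (chr2:180257377-180258445, plus strand), a small protein that binds beside Rpsa, measured 76.4, 77.4, 71.0 and 69.9 CPM in control replicates 1 to 4 and 59.0, 52.3, 54.3 and 57.5 CPM in high-fat replicates 1 to 4. Its control replicates 1 and 2 were above 3 and 4, and all 4 were above the high-fat libraries, at -0.40 ± 0.062 (SE), adjusted p = 0.00598 (edgeR). Rps4x (chrX:102184941-102189394, minus strand), the X-linked RNA-binding protein of the body, measured 166, 171, 155 and 155 CPM in control replicates 1 to 4 and 133, 118, 117 and 119 CPM in high-fat replicates 1 to 4. High-fat replicate 1 stood above the other 3 and still below every control library, and the log2 fold change was -0.41 ± 0.067 (SE), adjusted p = 0.00708 (edgeR). Fau (chr19:6057888-6059524, plus strand) encodes a ubiquitin-like protein fused to the ribosomal protein eS30, and measured 88.1, 89.4, 92.3 and 94.3 CPM in control replicates 1 to 4 and 73.1, 72.5, 72.9 and 74.5 CPM in high-fat replicates 1 to 4. Its high-fat libraries were almost equal, all below the lowest control library, and the log2 fold change was -0.31 ± 0.05 (SE), adjusted p = 0.00638 (edgeR).

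Rps3a1 (chr3:86137940-86142702, minus strand), the platform protein eS1, measured 157, 156, 154 and 148 CPM in control replicates 1 to 4 and 131, 124, 122 and 122 CPM in high-fat replicates 1 to 4. The groups were separate and each was tight, at -0.30 ± 0.055 (SE), adjusted p = 0.0106 (edgeR). Rpsa (chr9:120127766-120132369, plus strand), also known as the laminin receptor, sits at the back of the platform and measured 207, 224, 198 and 219 CPM in control replicates 1 to 4 and 176, 159, 154 and 179.8 CPM in high-fat replicates 1 to 4. Its spread was among the larger, with high-fat replicates 2 and 3 below 1 and 4, and the groups stayed apart. Its log2 fold change was -0.34 ± 0.074 (SE), adjusted p = 0.0204 (edgeR), and the call was lost without control replicate 2 (-0.32, adjusted p = 0.0576), high-fat replicate 2 (-0.32, 0.0663) or high-fat replicate 3 (-0.30, 0.0581).

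Rps15a, an RNA-binding protein of the body, had the lowest level per annotated exon length. Rps15a (chr7:118104372-118116188, minus strand) measured 71.4, 76.6, 68.8 and 70.6 CPM in control replicates 1 to 4 and 60.6, 57.6, 55.0 and 59.2 CPM in high-fat replicates 1 to 4. The groups did not overlap, at -0.31 ± 0.057 (SE), adjusted p = 0.012 (edgeR).

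Other called body and platform genes had smaller or similar steps. Rps14, whose partial loss underlies the anaemia of the human 5q- syndrome, went from 164 ± 8.1 to 126 ± 3.23 CPM (SD, n = 4), Rps7 from 142 ± 5.71 to 113 ± 3.56 CPM and Rps9 from 203 ± 5.11 to 165 ± 1.5 CPM. Rps23, a protein of the decoding centre, Rps26, at the messenger RNA exit, and Rps2, at the entry and the member with the highest CPM, were the called members with the largest p-values apart from Rpsa. Rps23 went from 73.4 ± 1.2 to 63.0 ± 1.34 CPM (SD, n = 4), -0.22 ± 0.047 (SE), adjusted p = 0.0202 (edgeR). Rps26 went from 93.1 ± 4.72 to 78.0 ± 4.1 CPM (SD, n = 4), -0.26 ± 0.062 (SE), adjusted p = 0.0327 (edgeR). Rps2 went from 300.0 ± 16.2 to 249 ± 9.9 CPM (SD, n = 4), -0.27 ± 0.066 (SE), adjusted p = 0.0319 (edgeR). For these 3 genes the groups did not overlap, but the calls depended on single libraries. Rps23 was not called without control replicate 1 (adjusted p = 0.0541) or high-fat replicates 1 (0.0534), 2 (0.0680) or 3 (0.0545). With 1 library left out Rps26 kept its call without control replicate 3 or high-fat replicate 4 and lost it without any other (adjusted p of 0.0551 to 0.0877). Rps2 kept it without control replicate 3 and lost it without any other (0.0508 to 0.0963). Without the low-count filter none of the 3 was called (Rps2 0.0599, Rps23 0.0796, Rps26 0.0628), and with exon length and GC trends removed Rps2 was not (0.0658). The size of the step moved little: with 1 library left out the log2 fold changes lay at -0.23 to -0.21 for Rps23, -0.29 to -0.23 for Rps26 and -0.30 to -0.25 for Rps2.

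**Figure D2:**
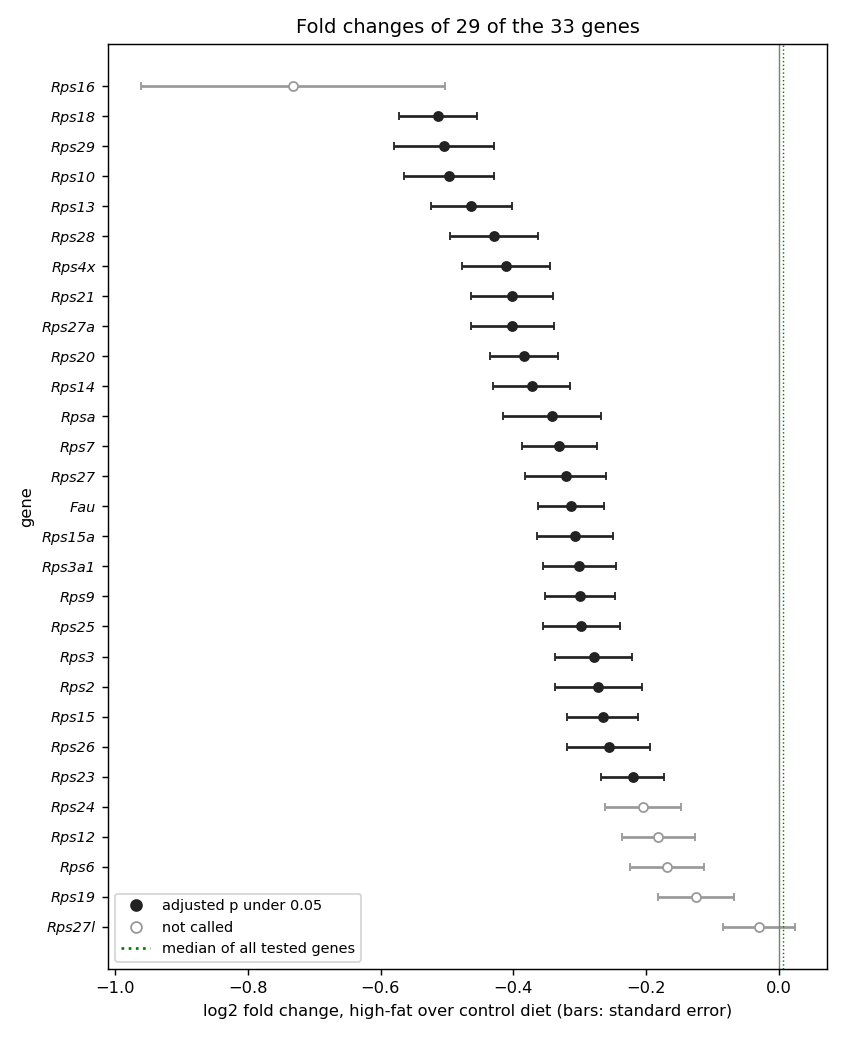
Log2 fold change (high-fat over control diet) of 29 of the 33 genes with its standard error as a bar, ordered by size, with called genes filled; the line at 0 marks no difference. All estimates shown lie below 0, from -0.73 for Rps16 to -0.03 for Rps27l, and the 6 uncalled genes include both ends.

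The 6 genes that were not called fell into 3 kinds. The first were Rps24, Rps12, Rps6 and Rps19, with steps in the direction of the rest but smaller. Rps24, a body protein, measured 199, 193, 199 and 196 CPM in control replicates 1 to 4 and 171, 166, 164 and 181 CPM in high-fat replicates 1 to 4. Rps12, in the beak of the head, measured 160.0, 169, 162 and 159.5 CPM in control replicates 1 to 4 and 145, 140.2, 139.5 and 149 CPM in high-fat replicates 1 to 4. In both the groups did not overlap; the log2 fold changes were -0.20 ± 0.057 (SE) and -0.18 ± 0.055 (SE), with adjusted p-values of 0.0544 and 0.07 (edgeR). Rps6, the substrate of the S6 kinases downstream of mTOR, measured 169, 167, 176 and 179 CPM in control replicates 1 to 4 and 152, 151, 151 and 160.2 CPM in high-fat replicates 1 to 4. Its control replicates 3 and 4, not 1 and 2, were the highest, high-fat replicate 4 was the highest of its group, and the groups did not overlap, at -0.17 ± 0.056 (SE), adjusted p = 0.0934 (edgeR). Rps19, the gene most often mutated in Diamond-Blackfan anaemia in humans, measured 114, 124, 117 and 110.2 CPM in control replicates 1 to 4 and 107, 104, 109.9 and 106 CPM in high-fat replicates 1 to 4. High-fat replicate 3 lay just below control replicate 4, so the groups were barely separate, at -0.12 ± 0.057 (SE), adjusted p = 0.213 (edgeR). DESeq2 called Rps24 (adjusted p = 0.00194), Rps12 (0.00416) and Rps6 (0.0124) lower with similar log2 fold changes. Rps24 was also called by limma-voom (0.0481) and by edgeR with exon length and GC trends removed (-0.25, 0.0445).

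The second kind was Rps16 (ENSMUSG00000037563.15, chr7:28350652-28353155, plus strand), a head protein whose tail reaches the transfer RNA in the peptidyl site. It measured 91.4, 74.5, 49.3 and 41.9 CPM in control replicates 1 to 4 and 32.8, 37.6, 37.2 and 47.1 CPM in high-fat replicates 1 to 4. Control replicates 1 and 2 were far above everything else, control replicates 3 and 4 lay within or close to the high-fat range, and the groups overlapped. The mean went from 64.3 ± 22.9 to 38.7 ± 6.02 CPM (SD, n = 4). Its log2 fold change was the largest among members in size, -0.73 ± 0.23 (SE), with an adjusted p of 0.0779 (edgeR). The call turned with 1 library: without control replicate 4 the log2 fold change was -0.89 (adjusted p = 0.0263), and without control replicate 1 it was -0.51 (0.157). DESeq2 (adjusted p = 0.0161) and edgeR without the low-count filter (0.0264) called it lower. As a percent of its control mean Rps16 stood at 142%, 116%, 76.7% and 65.2% in control replicates 1 to 4, while the median member stood at 100.1%, 103%, 97.1% and 99.6%. The control spread of Rps16 was thus not shared by the other members.

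The remaining gene was Rps27l (ENSMUSG00000036781.13, chr9:66946086-66949516, plus strand), a paralog of Rps27 known in human and mouse cells as a target of p53. It measured 124, 123, 132 and 131 CPM in control replicates 1 to 4 and 124, 128, 126 and 121 CPM in high-fat replicates 1 to 4. The groups overlapped, and the mean went from 128 ± 4.47 to 125 ± 3.15 CPM (SD, n = 4), a difference smaller than the spread. Its log2 fold change was -0.03 ± 0.054 (SE) with an adjusted p of 0.773 (edgeR), and with library totals alone it turned to 0.06 (0.460). Rps27 itself (chr3:90212522-90213651, minus strand), a zinc-binding protein of the platform, measured 134, 135, 124 and 137 CPM in control replicates 1 to 4 and 112, 109, 101 and 102 CPM in high-fat replicates 1 to 4. All high-fat libraries lay below the control range, at -0.32 ± 0.061 (SE), adjusted p = 0.0125 (edgeR).

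The pair was compared within each library, where the ratio of counts needs no scaling between libraries. The count of Rps27 over that of Rps27l was 1.08, 1.09, 0.945 and 1.05 in control replicates 1 to 4 and 0.905, 0.850, 0.802 and 0.845 in high-fat replicates 1 to 4. Every high-fat ratio was below every control ratio. The difference in log2 ratio was -0.29 (exact two-sided permutation test, p = 0.0286, the smallest that 4 against 4 libraries allow, for 1 ratio tested). This ratio was chosen after the values of both genes were known. With 1 library left out the difference was -0.34 to -0.26, with an exact permutation p of 0.0571 when high-fat replicate 2, 3 or 4 was left out and 0.0286 otherwise. The principal transcripts of the pair are 76.4% identical over 254 aligned bases, and how reads that fit both were counted is not given in the sources used here.

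**Figure D3:**
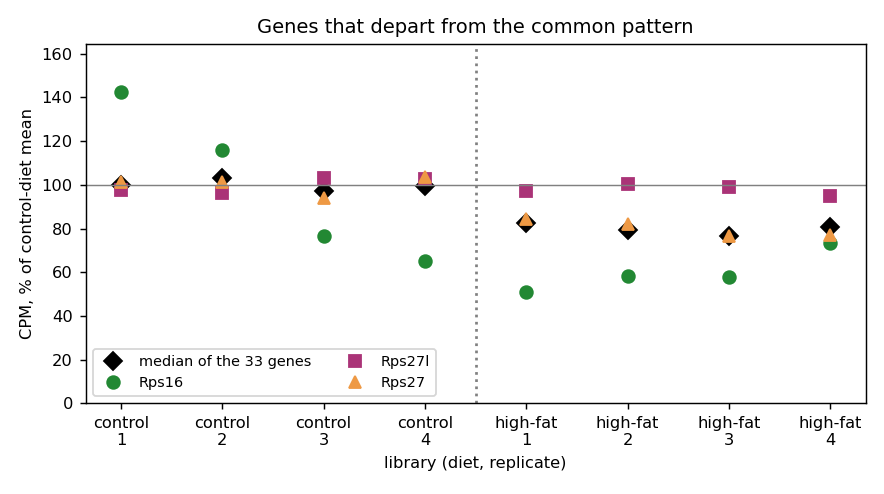
Level of Rps16, Rps27l, Rps27 and the median member in each library, as a percent of the gene's control mean. The median member lies at 97.1% to 103% in control and 76.4% to 82.3% in high-fat libraries, Rps27l stays at 94.9% to 103% in all 8, and Rps16 runs from 142% down to 51.0%.

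Members also differed in level. Per kb of annotated exon Rps15 (182 CPM per kb) and Rps27l (155) were among the 3 highest over the 8 libraries, and Rps15a (10.4), Rps19 (23.8) and Rps20 (24.4) lowest. Annotated exons of some members include long retained-intron isoforms. Per kb of the principal transcript the order changed, with Rps27 (346 CPM per kb), Rps12 (309.8) and Rps2 (275) highest and Rps20 (26.8), Rps16 (46.4) and Rps23 (72.8) lowest. Only Rps20 was among the lowest on both scales, so the order of level depends on the length used. The principal transcript taken for Rps20 was 3706 bases long and that for Rps16 1109 bases, against 345 for Rps27 and 494 for Rps12. A low value per kb of these 2 genes therefore also reflects the transcript chosen. By origin, 14 of 15 proteins shared by all domains of life were called lower (median log2 fold change -0.34), and 13 of 17 without a bacterial counterpart (-0.32), with Rps27l counted in neither. Of all tested genes 5.86% were called lower. The members lie on 14 chromosomes, 9 of them on chromosome 7.

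Summed over the 33 genes, the small subunit level was 4577, 4598, 4374 and 4475 CPM in control replicates 1 to 4 and 3699, 3574, 3520.3 and 3704 CPM in high-fat replicates 1 to 4. The groups were separate, with means of 4506 ± 103 and 3624 ± 91.9 CPM (SD, n = 4), 19.6% lower on the high-fat diet. Without Rps16 the sum was 19.3% lower. In unscaled counts the members took 0.443%, 0.449%, 0.425% and 0.427% of the control libraries and 0.378%, 0.364%, 0.375% and 0.380% of the high-fat libraries. The diets were separate in unscaled counts too, by a smaller step: the ratio of the means was 0.804 with TMM and 0.859 with library totals alone.

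The genes of the large subunit, the partner that forms peptide bonds, were lower by a similar amount. Of 49 tested, 37 were called lower and 0 higher by edgeR, beside 5.86% and 3.75% of all tested genes. At an unadjusted p under 0.05 the numbers were 47 and 0, and the median log2 fold change was -0.29. With library totals alone 24 were called lower, beside 3.79% of all tested genes, and without control replicates 1 and 4 21, beside 3.18%. Their sum went from 7173 ± 184 to 5797 ± 155 CPM (SD, n = 4), 19.2% lower. The ratio of the small to the large subunit sum was 0.635, 0.628, 0.634 and 0.617 in control and 0.627, 0.624, 0.627 and 0.623 in high-fat replicates 1 to 4. The diets overlapped in this ratio, at 0.628 ± 0.00818 and 0.625 ± 0.00214 (SD, n = 4). The small subunit of the mitochondrial ribosome was represented by the 29 nuclear genes named Mrps. They were taken by name, and not all of them encode proteins of that subunit. These genes differed less: their sum went from 798 ± 34.9 to 748 ± 27.7 CPM (SD, n = 4), 6.29% lower, with a median log2 fold change of -0.08. The sums overlapped between the diets, at 769 to 840 CPM in control and 723 to 787 CPM in high-fat libraries. In unscaled counts the Mrps genes took 0.0747% to 0.0802% of control and 0.0751% to 0.0807% of high-fat libraries. Without the TMM scaling their sum was thus not lower on the high-fat diet. Of these 29, 2 were called lower and 0 higher by edgeR, DESeq2 and limma-voom alike (5 and 0 by edgeR at an unadjusted p under 0.05), a share near the 5.86% called lower among all tested genes by edgeR. Mrps27 had a log2 fold change of -0.45 ± 0.11 (SE; adjusted p = 0.0287, edgeR) and Mrps24 -0.32 ± 0.08 (0.0401), and each call was lost on leaving out 1 of control replicates 1 and 2 or 1 of the high-fat libraries, with adjusted p-values up to 0.108; that of Mrps24 was also lost without control replicate 4.

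**Figure D4:**
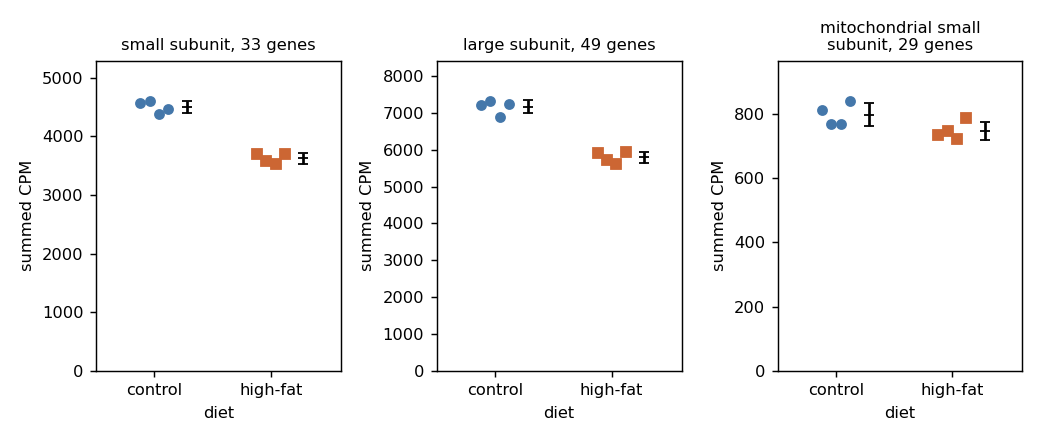
Summed CPM of the small subunit, large subunit and mitochondrial small subunit (all Mrps names) genes in each library, with the mean and SD of each diet (n = 4), on axes from 0. The sums of both cytosolic subunits are about as much lower on the high-fat diet (19.6% and 19.2%). That of the Mrps genes is 6.29% lower, with overlap between the diets.

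Few genes of the wider pathway were called, which does not show that the others did not differ. Of 52 tested ribosome assembly factors, most of them for the small subunit, 0 were called in either direction by edgeR. Among these factors, such as processome components and late maturation kinases, 34 lay below 0 and the median log2 fold change was -0.05. At an unadjusted p under 0.05 edgeR gave 4 lower and 3 higher, DESeq2 called 0 lower and 1 higher, and limma-voom called 0. Of 21 RNA polymerase I and rDNA transcription genes 0 were called by edgeR (2 lower and 3 higher at an unadjusted p under 0.05), DESeq2 or limma-voom, with a median of -0.02. Of 31 initiation factors that work on the small subunit 1 was called higher, the scaffold Eif4g3 (0.55 ± 0.066 (SE), adjusted p = 0.00248, edgeR), and 1 lower, Eif1a, which helps to find the start codon (-0.26 ± 0.062, 0.0313), with a median of -0.04. Of all tested genes 3.75% were called higher and 5.86% lower. The call of Eif1a was lost on leaving out any library but control replicate 3, with adjusted p-values of 0.0509 to 0.0851.

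Rack1, a scaffold protein bound to the head of the subunit and not named Rps, was described for that role. It measured 305, 320.0, 280.3 and 292 CPM in control replicates 1 to 4 and 235, 222, 227 and 235 CPM in high-fat replicates 1 to 4. The high-fat libraries were all below the control range, at -0.38 ± 0.064 (SE), adjusted p = 0.00827 (edgeR), a step like that of the head proteins. Rack1 belongs to 18 tested genes outside the Rps and Rpl names whose messenger RNAs are known to carry TOP motifs. Of these, 3 were called lower (5 by DESeq2) and 1 higher, beside 5.86% and 3.75% of all tested genes by edgeR, with a median of -0.09. Estimates lay below 0 for 16 of the 18. In 8 every high-fat library lay below every control library, beside 9.97% of all tested genes. The elongation factor Eef1b2 was lower (-0.31 ± 0.068 (SE), adjusted p = 0.0207, edgeR). The call of Eef1b2 was lost on leaving out 1 of control replicates 1 and 2 or 1 of the high-fat libraries, with adjusted p-values of 0.0511 to 0.0615. The histone chaperone Nap1l1 was higher (0.53 ± 0.10, 0.0141, edgeR), a call lost without control replicates 1 and 4 (adjusted p = 0.0669). The elongation factors Eef1a1 (-0.16, adjusted p = 0.273) and Eef2 (-0.20, 0.109) and Tpt1 (-0.10, 0.363) were not called by edgeR, though their groups did not overlap.

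Among 37 tested genes of the mTOR and S6 kinase pathway, which acts on Rps6, 3 were called lower and 0 higher by edgeR (6 and 5 at an unadjusted p under 0.05), a share near the 5.86% and 3.75% of all tested genes, and the median log2 fold change was -0.00014. DESeq2 called 3 lower and 3 higher, edgeR with library totals alone also called 3 higher, and limma-voom 2 lower and 0 higher. Pdcd4, an inhibitor of the initiation helicase eIF4A and an S6 kinase target, had a log2 fold change of -0.82 ± 0.10 (SE; adjusted p = 0.00303, edgeR). Tsc1 (-0.44 ± 0.10, 0.0253) and Ddit4 (-1.20 ± 0.30, 0.0366), both of which restrain mTOR complex 1, were also called. Tsc1 lost its call when control replicate 4 or 1 of high-fat replicates 2 to 4 was left out (adjusted p up to 0.0777), and Ddit4 without any library but control replicate 4 (up to 0.0955).

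**Figure D5:**
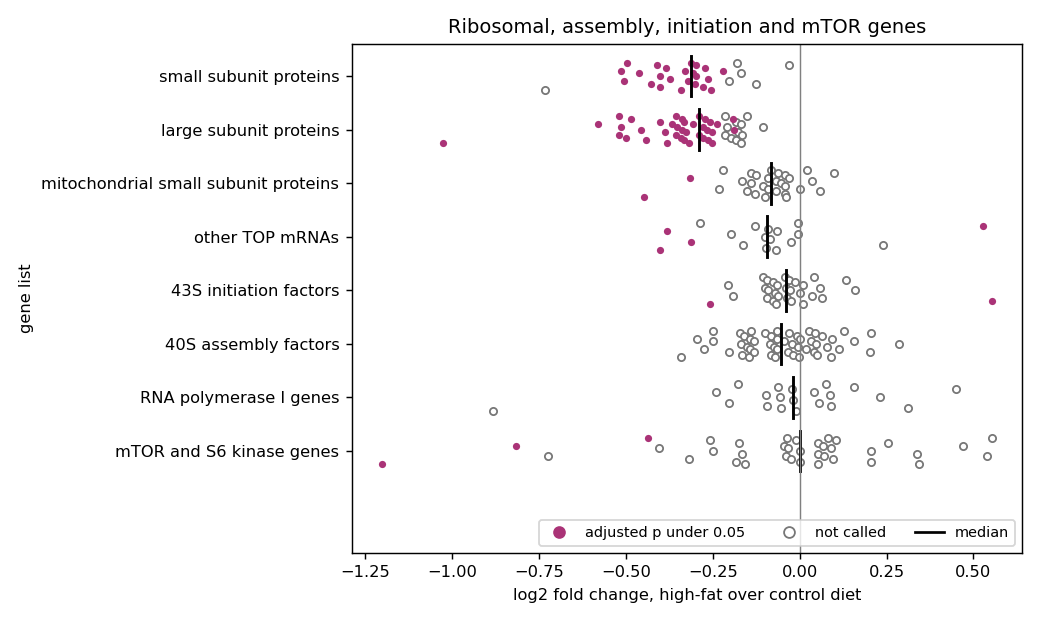
Log2 fold changes (high-fat over control diet) of the tested genes of each list, with called genes filled and the list's median as a bar. The medians of the small and large subunit genes lie at -0.32 and -0.29 and those of the other 6 lists between -0.09 and 0.

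Several members share their place with other genes. Within the spans of 10 members lie 19 small nucleolar RNA genes on the same strand; most such RNAs are cut from introns and guide the modification of ribosomal RNA. Of the 7 with enough counts 2 were called lower and 0 higher by edgeR, beside 5.86% and 3.75% of all tested genes. No count was found in any library for 4 of the 19. Gm26448, inside Rpsa, measured 44.3, 33.6, 30.9 and 43.3 CPM in control replicates 1 to 4 and 24.5, 21.6, 20.3 and 25.2 CPM in high-fat replicates 1 to 4. No high-fat library reached the control range, at -0.73 ± 0.13 (SE), adjusted p = 0.00956 (edgeR), and its count was 16.0% of that of Rpsa. Snora64, inside Rps2, had a log2 fold change of -1.43 ± 0.32 (SE; adjusted p = 0.0220, edgeR), a call lost when control replicate 1 or 1 of high-fat replicates 2 to 4 was left out (up to 0.0669). Whether reads of these RNAs entered the counts of their hosts is not given in the sources used here.

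In 4 members the overlap was with another protein-coding gene: Rps18 with Vps52, Rps28 with Kank3, Rps25 with Ccdc84 and Rps27a with Clhc1. All 4 partners lie on the opposite strand and had 14.9%, 9.26%, 4.03% and 0.0334% of the member's count. The kit marks strand, but the strand setting of the counting is not given in the sources used here, so such reads cannot be assigned with certainty. Ribosomal protein genes also have many processed copies. By BLAST at 95% identity or more over at least 100 bases and at least 50% of either transcript, 132 rows of the table were near-identical to a member, for 29 of the 33. They held 616 to 756 counts per library, 0.496% to 0.727% of the members' counts. Over the 8 libraries 4094 of these counts were in Med21, a gene of the Mediator complex with a stretch like Rps26, and the rows like Rps26 held 21.6% as many counts as Rps26; for the other members the share was at most 0.558%. The treatment of reads that map to several places is not given in the sources used here.

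Cell composition was described with markers. Of the hepatocyte markers 2 of 5 were called lower (Serpina1a and Cps1) and 0 higher by edgeR, beside 5.86% and 3.75% of all tested genes. The summed level of these markers was lower in every high-fat than in every control library, as was that of the small subunit. Its part in the result was not tested. With the 10 most abundant genes removed before scaling, 27 members were called lower, beside 5.83% of all genes. That fit changes only the scaling and cannot speak to cell composition, because the mix of cells in the samples stays the same. Of 29 tested markers of other cell types 0 were called in either direction by edgeR or limma-voom; 5 were higher at an unadjusted p under 0.05 (Pecam1 of endothelium, Hbb-bt and Hba-a1 of red cells, and the stellate cell collagens Col1a1 and Col3a1). DESeq2 called Pecam1 and Hbb-bt, 2 of the 29, higher, and their part in the result was not tested. The summed ranges in control and high-fat libraries were 299 to 734 and 357 to 615 CPM for Kupffer cells, 321 to 376 and 327 to 375 for endothelium, and 431 to 536 and 455 to 758 for stellate cells. Lymphocyte markers summed to 2.15 to 2.88 and 2.17 to 4.29 CPM, neutrophil markers to 1.02 to 6.21 and 1.73 to 7.36, cholangiocyte markers to 3.26 to 19.6 and 6.97 to 9.64, and erythroid markers to 133 to 217 and 130.4 to 217. All of these ranges overlapped between the diets. Most erythroid counts were of Alas2, 3423 to 5586 in a library, with a log2 fold change of -0.11. The log2 fold changes of the globins Hba-a1, Hbb-bs and Hbb-bt were 1.425, 1.131 and 1.405, and none was called by edgeR. In high-fat replicate 3 the globin counts (58, 160 and 25) lay below those of every control library. Adipocyte markers were too low to test, at 0 to 3.37 and 0.203 to 0.908 CPM, with Adipoq at 42 and 32 counts in control replicates 1 and 4. Pancreatic acinar markers were at most 0.777 CPM, and 2 of 4 had no count.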

How the data were processed

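Liver RNA of 8 mice was sequenced, 4 per diet. Per the labels' protocols, RNA was extracted by a mirVana kit, and a stranded kit for total RNA served for the libraries. Per the submitters' processing notes, the build was mm10 and the tools were TopHat2 2.1.1, Trimmomatic 0.32 and bcl2fastq 2.20.0.422. How reads were counted (tool, strand setting, annotation release, multiply mapped reads) is not given in the sources used here. The authors deposited raw counts by gene in 1 table, whose 8 count columns carry the sample titles.

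Groups followed the source names of the samples, which give the diet. Replicates were numbered in sample order, which pairs nothing, and the labels name no batch. The diets were compared on the counts of all 8 libraries by the quasi-likelihood test of edgeR 4.0.16 (R 4.3.3), with TMM scaling, over the 14088 genes that passed filterByExpr and held 99.9% of the counts. Benjamini-Hochberg adjustment of p-values ran over all of these genes. SEs are the absolute log2 fold change over the square root of F, and SDs are over 4 libraries. The edgeR step was checked on simulated data. Depth was compared between diets by an exact permutation test, two-sided, on the total counts (p = 0.514, n = 4 per group). Each member had at least 948 counts in each library, and the SDs hold counting error as well as the spread between animals.

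Alternatives were RLE and upper-quartile factors, library totals alone, TMM without ribosomal protein genes, DESeq2 1.42.0, limma-voom 3.58.1, no filter, a minimum of 1 CPM in 4 libraries, leaving the 10 most abundant genes out, removal of exon length and GC trends (loess, span 0.3), thresholds of 0.01 and 0.10, and leaving out single libraries or control replicates 1 and 4. Leaving libraries out of the Rps27 to Rps27l ratio was added after seeing the data. The members, the gene lists and the markers were chosen with earlier results of these data known. Named genes were up to 8 called members by smallest p, the 4 uncalled members with the smallest p, the 3 highest and 3 lowest per exon length, 8 set by name for their role, and up to 4 called genes per list with Rack1; the small nucleolar RNAs and the other members were named beside them after their values were seen. Of the members 29 are reported by name, and all 33 enter the counts, medians and sums; 4 members and 1 called gene of a list are not reported here. Riok2, Castor1 and Castor2 of the lists had no row in the table analysed here. Exon lengths and principal transcripts came from GENCODE M21, matched by identifier; near-identical copies were found with BLAST+ 2.17.0. Promoter windows came from RefSeq on GRCm38.p6.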

Additional observations from a re-analysis of the deposited data

Results flagged for a closer look

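Of 62 groups of 4 libraries examined (the 29 members reported by name, the summed level and the Rps27 to Rps27l ratio, by diet), 2 held 1 library far from the other 3, and about 1 in 20 such groups does so by chance. The gap to the nearest library was compared with the whole range of the group. For Rps6, the S6 kinase substrate, high-fat replicate 4 had 160.2 CPM against 151 to 152 CPM, a gap of 0.884 of the range. For Rps4x, high-fat replicate 1 had 133 CPM against 117 to 119 CPM, a gap of 0.869 of the range. Both libraries still lay below every control library.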

How the results depend on the processing

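No paired analysis was possible because the sample titles carry no replicate numbers and no label names a pairing. Over 19 alternative fits 18 of the 33 members were called lower in every one, 21 in all 8 fits that left out 1 library, and 0 were called higher in any. Estimates lay below 0 in every fit for 32 members; Rps27l turned to 0.065 (adjusted p = 0.460, edgeR) with library totals alone. The median of the members was -0.35 to -0.30 except with library totals alone (-0.23), where the ratio of summed levels was 0.859. At an adjusted p of 0.01, 16 members were lower. DESeq2 called 31 and limma-voom 28. Over all genes, calls with library totals alone were 534 lower and 1111 higher, in DESeq2 860 higher, and without control replicates 1 and 4 461 lower and 282 higher. With 1 library left out 432 to 843 genes were called lower, 293 to 636 higher, and 21 to 27 members lower. The calls of Rps2, Rps3, Rps15, Rps23, Rps26 and Rpsa depended on single libraries; the cause was not tested. Strand, annotation and multiple mapping of the counting could not be varied.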
